A study of Mus musculus with 9 samples.

Results

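The osteoclast ITAM co-receptors and adaptors were followed here as 8 genes, chosen by their symbols among the 27179 genes of the count table: the adaptors *Tyrobp* and *Hcst*, the activating receptors *Trem1*, *Trem2*, *Oscar* and *Siglec15*, and the inhibitory receptors *Sirpa* and *Pirb*. All 8 were present and all 8 passed the read filter. *Siglec15* passed it only through the WT libraries, with 2 to 11 reads in each library of the other group. *Hcst* and *Trem1* also needed WT libraries to pass, since each had 1 library with 7 reads in the other group. Whole mandibles, teeth included, were taken from 6-month-old male C57BL/6 mice, and poly(A) RNA was sequenced from 5 wild type (WT) mice and 4 mice labelled as FcγRIIB-/-, a knockout of *Fcgr2b*, the inhibitory IgG receptor. The deposited values were raw read counts per gene, with totals of 24158960 to 26787359 per WT library and 21453880 to 28991631 per FcγRIIB-/- library. The counts of *Fcgr2b* did not show the knockout (log2 fold change 0.21, adjusted p = 0.442), so the FcγRIIB-/- group is named by its label, as KO-labelled libraries.

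Osteoclasts need a second input beside RANKL and M-CSF. It comes from receptors that have no signalling tail of their own and pair in the membrane with a small adaptor, DAP12 (*Tyrobp*) or the Fc receptor γ chain FcRγ (*Fcer1g*). The adaptor carries an immunoreceptor tyrosine-based activation motif (ITAM), which recruits the kinase Syk once phosphorylated, and Syk leads through phospholipase Cγ to calcium signals and to NFATc1, the transcription factor that drives osteoclast genes. DAP10 (*Hcst*) lacks an ITAM and recruits PI3K instead. Inhibitory receptors carry ITIM motifs, which recruit phosphatases such as SHP-1 (*Ptpn6*) and SHIP1 (*Inpp5d*).

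Of the 8 genes, 5 were lower in the KO-labelled libraries by edgeR's quasi-likelihood test (*Siglec15*, *Trem1*, *Hcst*, *Oscar* and *Tyrobp*), none was higher, and 3 did not pass (*Pirb*, *Sirpa* and *Trem2*). For comparison, 19.3% of the 16329 genes tested were called lower and 14.0% higher. In 4 of the 8, every KO-labelled library was below every WT library, which held for 17.5% of all genes tested. *Siglec15*, *Hcst* and *Trem1*, which needed WT libraries to pass the read filter, are in both counts. The fitted log2 fold changes (KO-labelled minus WT) were negative for all 8, with a median of -0.98 against a median of 0.01 over all genes tested. DESeq2 called 6 of the 8 lower, *Pirb* being the additional one, against 19.7% of its genes. Levels are given below as CPM, the reads of a gene scaled to the TMM-normalised size of its library, and every adjusted p without another name is from edgeR with Benjamini-Hochberg adjustment over all genes tested.

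**Figure D1:**
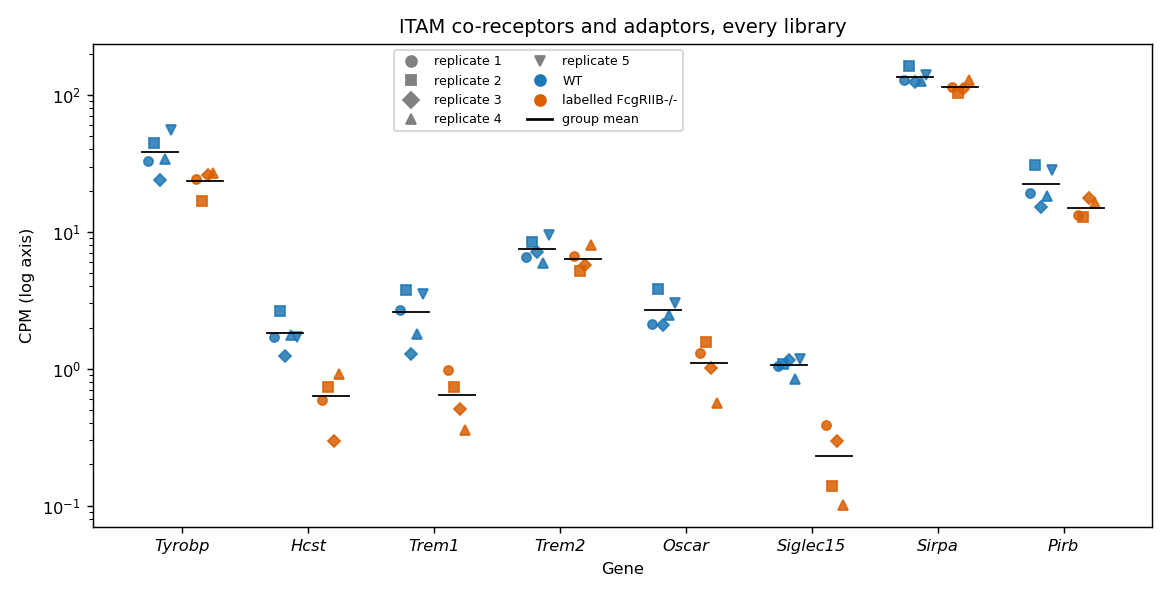
CPM of each of the 8 genes in each library (log axis), with 5 WT and 4 KO-labelled points per gene and a bar at each group mean. The groups are separate for Hcst, Trem1, Oscar and Siglec15 and overlap for Tyrobp, Trem2, Sirpa and Pirb.

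*Tyrobp* encodes DAP12, the ITAM adaptor shared by TREM1, TREM2, Siglec-15 and many other myeloid and NK receptors. The gene (identifier 22177) lies on chromosome 7 from 30413782 to 30417582 of mm10, on the plus strand. WT replicates 1 to 5 had 32.7, 44.6, 24.0, 33.9 and 55.7 CPM, and KO-labelled replicates 1 to 4 had 24.5, 16.7, 26.1 and 27.1 CPM. The WT libraries were spread widely, and WT replicate 3 lay within the KO-labelled range. The WT mean was 38.2 ± 12.2 CPM (SD, n = 5) and the KO-labelled mean 23.6 ± 4.72 CPM (SD, n = 4), a log2 fold change of -0.69 (95% interval -1.20 to -0.19, standard error 0.23, adjusted p = 0.0383). The call was close to the threshold: it was lost in 8 of the 9 fits that left out 1 library, all but the fit without WT replicate 3, with adjusted p-values between 0.014 and 0.0983.

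*Hcst* encodes DAP10, the PI3K-coupled adaptor best known for NKG2D, which can also pair with TREM2 complexes. It lies next to *Tyrobp* on chromosome 7, from 30417712 to 30419854 on the minus strand, and 129 bases separate the converging 3′ ends of both genes. Counts were low: 47, 66, 32, 48 and 44 reads in WT replicates 1 to 5 and 17, 16, 7 and 18 in KO-labelled replicates 1 to 4. All KO-labelled libraries were below all WT libraries. The WT mean was 1.81 ± 0.514 CPM (SD, n = 5) and the KO-labelled mean 0.636 ± 0.261 CPM (SD, n = 4), a level 34.9% of WT (log2 fold change -1.52, standard error 0.33, adjusted p = 0.00619). The library kit marks strand, but the strand setting of the read counting is not given in the sources used here, so reads running past the end of either gene could have been counted for the other.

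*Fcer1g*, the FcRγ adaptor with which OSCAR pairs, was measured beside the 8 genes. It fell from 32.0 ± 6.66 CPM (SD, n = 5) in WT to 15.5 ± 3.56 CPM (SD, n = 4), which is -1.04 ± 0.18 (standard error) in log2 fold change (adjusted p = 0.00235), with no overlap between the groups. Within each library, log2 *Tyrobp* minus log2 *Fcer1g* was 0.22 in WT and 0.60 in KO-labelled libraries, a difference of 0.38 that did not pass after adjustment over the 6 pairs compared (two-sided exact permutation test, p = 0.0476, adjusted p = 0.0952).

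*Trem1* and *Trem2* are both DAP12-coupled members of the TREM cluster. TREM1 amplifies inflammatory responses on neutrophils and monocytes, and TREM2 binds lipids and apolipoproteins on macrophages and on osteoclast precursors. *Trem1* (identifier 58217) lies on chromosome 17 from 48232713 to 48246927 and *Trem2* (identifier 83433) from 48346401 to 48352276, both on the plus strand with 99473 bases between them.

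*Trem1* had 2.68, 3.73, 1.27, 1.80 and 3.51 CPM in WT replicates 1 to 5 and 0.981, 0.739, 0.508 and 0.355 CPM in KO-labelled replicates 1 to 4, from 7 to 28 reads in the latter. Its groups did not overlap. The mean was 2.60 ± 1.06 CPM (SD, n = 5) against 0.646 ± 0.274 CPM (SD, n = 4), a log2 fold change of -1.97 (95% interval -2.84 to -1.11, standard error 0.39, adjusted p = 0.00419).

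*Trem2* had 6.59, 8.39, 7.09, 5.95 and 9.53 CPM in WT replicates 1 to 5 and 6.66, 5.18, 5.68 and 7.96 CPM in KO-labelled replicates 1 to 4. The ranges overlapped, and the log2 fold change of -0.24 did not pass (standard error 0.17, 95% interval -0.62 to 0.15, adjusted p = 0.316). As folds of the WT level, the interval runs from 0.649 to 1.11. Within each library, log2 *Trem1* minus log2 *Trem2* averaged -1.59 ± 0.50 (SD, n = 5) for WT and -3.21 ± 0.73 (SD, n = 4) for KO-labelled libraries, without overlap. The difference of -1.63 gave p = 0.0159 in the two-sided exact permutation test and did not pass after adjustment over the 6 pairs (adjusted p = 0.0952).

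*Oscar* and *Siglec15* are receptors found mostly on cells of the osteoclast lineage. OSCAR binds exposed collagen and signals through FcRγ, whereas Siglec-15 binds sialylated glycans, signals through DAP12 and is needed for full osteoclast fusion. *Oscar* (identifier 232790) lies on chromosome 7 from 3609813 to 3616157 on the minus strand. It had 2.14, 3.81, 2.08, 2.46 and 3.01 CPM in WT replicates 1 to 5 and 1.30, 1.57, 1.02 and 0.558 CPM in KO-labelled replicates 1 to 4. All KO-labelled values were below all WT values, and the log2 fold change was -1.27 (standard error 0.30, 95% interval -1.93 to -0.61, adjusted p = 0.00953).

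*Siglec15* (identifier 620235) had the lowest mean CPM of the 8 in both groups. It had 29, 27, 30, 23 and 30 reads in WT replicates 1 to 5, a narrow range, and 11, 3, 7 and 2 reads in KO-labelled replicates 1 to 4. The mean was 1.06 ± 0.131 CPM (SD, n = 5) against 0.231 ± 0.134 CPM (SD, n = 4), a level 23.0% of WT and the most negative log2 fold change of the 8 (-2.12, standard error 0.34, 95% interval -2.87 to -1.37, adjusted p = 0.00163). With 2 to 11 reads in each KO-labelled library, its values carry a large counting error. The within-library difference between *Oscar* and *Siglec15* was 1.26 in WT and 1.96 in KO-labelled libraries, which did not pass (adjusted p = 0.0952, two-sided exact permutation test).

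*Sirpa* and *Pirb* are the inhibitory receptors of the set. SIRPα binds CD47 on neighbouring cells and takes part in macrophage and osteoclast fusion, and PIR-B binds MHC class I molecules. *Sirpa* (identifier 19261, chromosome 2 from 129591042 to 129632228, plus strand) had 128.8, 162.8, 123.7, 126.1 and 139.8 CPM in WT replicates 1 to 5 and 113.5, 104, 110.6 and 127.8 CPM in KO-labelled replicates 1 to 4. KO-labelled replicate 4 lay within the WT range, the other three below it. The log2 fold change was -0.26 (standard error 0.095, 95% interval -0.47 to -0.05, adjusted p = 0.0585). It did not pass, but did so without KO-labelled replicate 4 (adjusted p = 0.0367) and when libraries were scaled by their totals alone (adjusted p = 0.0162).

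*Pirb* (identifier 18733, chromosome 7 from 3712505 to 3720382, minus strand) lies 96347 bases from *Oscar*. It had 19.1, 30.5, 15.1, 18.3 and 28.2 CPM in WT replicates 1 to 5 and 13.2, 12.8, 17.5 and 16.2 CPM in KO-labelled replicates 1 to 4. The ranges overlapped between 15.1 and 17.5 CPM, and the log2 fold change of -0.57 did not pass (standard error 0.21, adjusted p = 0.0541). It passed in DESeq2 (adjusted p = 0.0288), with library totals alone (adjusted p = 0.0295) and without WT replicate 3 (adjusted p = 0.0235). The activating *Pira* genes are near-identical to *Pirb* over much of their length, and the handling of reads that match several genes is not stated, so the count of *Pirb* is uncertain. The within-library difference between *Pirb* and *Sirpa* did not pass either (-0.28, adjusted p = 0.19, two-sided exact permutation test). Of the 6 pairs compared in all, 0 passed after adjustment and 2 had an unadjusted p under 0.05.

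**Figure D2:**
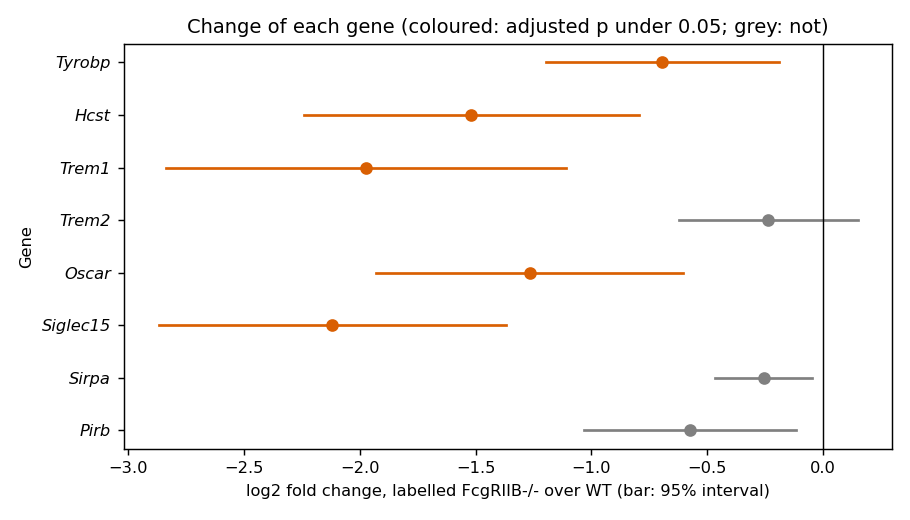
Fitted log2 fold change (KO-labelled minus WT) of the 8 genes with its 95% interval, from edgeR. Coloured points passed the adjusted p threshold of 0.05 and grey points did not. The interval of Trem2, -0.62 to 0.15, is the only one of the 8 that includes 0.

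The levels of different genes were compared per kilobase of exon, counting every base in an exon of any isoform in the GENCODE annotation. Such a length can exceed that of the main transcript. It was 4946 bases for *Trem2*, so the place of *Trem2* in the order depends on the length used. In WT, *Tyrobp* had the highest level at 57.2 ± 18.3 CPM per kb, followed by *Sirpa* at 27.7, *Pirb* at 4.97, *Hcst* at 2.51, *Trem2* at 1.52, *Oscar* at 1.46, *Siglec15* at 0.918 and *Trem1* at 0.868. Neighbours in this order overlapped in range, except *Tyrobp* with *Sirpa*, *Sirpa* with *Pirb*, and *Oscar* with *Siglec15*. The receptors *Trem1*, *Trem2*, *Oscar* and *Siglec15* were each far below the adaptor *Tyrobp* in level. In KO-labelled libraries the order was *Tyrobp* at 35.4 CPM per kb, *Sirpa* at 23.2, *Pirb* at 3.34, *Trem2* at 1.29, *Hcst* at 0.881, *Oscar* at 0.601, *Trem1* at 0.216 and *Siglec15* at 0.199, where *Sirpa* and *Pirb*, and *Pirb* and *Trem2*, were the only neighbours without overlap. *Trem2* stood above *Hcst* in this group and below it in WT, with overlapping ranges in both and an order that depends on the lengths used.

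The same libraries were often at the ends of the ranges. WT replicate 2 was the highest WT library for *Hcst*, *Trem1*, *Oscar*, *Sirpa* and *Pirb*, and WT replicate 5 for *Tyrobp*, *Trem2* and *Siglec15*. WT replicate 3 was the lowest WT library for 6 genes (*Tyrobp*, *Hcst*, *Trem1*, *Oscar*, *Sirpa* and *Pirb*), and KO-labelled replicate 2 the lowest of its group for *Tyrobp*, *Trem2*, *Sirpa* and *Pirb*. KO-labelled replicate 4 was the highest of its group for *Tyrobp*, *Hcst*, *Trem2* and *Sirpa* and the lowest for *Trem1*, *Oscar* and *Siglec15*.

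Many markers of cells in the bone were also lower, though not all. Each list count below stands beside the 19.3% of all genes tested that were called lower and the 14.0% called higher. Bulk RNA cannot tell fewer cells of a type from less RNA per cell. Of 15 osteoclast markers, 9 were lower and none higher (median log2 fold change -1.03), with *Mmp9* (-1.84) and the β3 integrin *Itgb3* (-1.30) the most changed, and their summed level was 1380 to 1817 CPM in WT and 669.8 to 853.4 CPM in KO-labelled libraries. The other 6 osteoclast markers did not pass, among them *Tcirg1* (-0.04) and *Clcn7* (-0.08). Of 14 macrophage and monocyte markers, 7 were lower (median -0.62), led by *Ly6c2* (-3.82) and *Ccr2* (-1.47) of inflammatory monocytes and including the M-CSF receptor *Csf1r* (-0.86). The other 7 did not pass, among them *C1qa* (-0.06), *C1qb* (0.20), *C1qc* (0.04), *Cd14* (0.31) and *Mertk* (0.08). The summed levels of the macrophage and monocyte list overlapped, 512.7 to 778.9 CPM in WT and 420.8 to 517.8 CPM in KO-labelled libraries.

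All 14 neutrophil markers were lower (median -3.05), with *Ly6g* (-5.57) and *Ngp* (-4.48) the most changed (-6.26 and -5.33 without KO-labelled replicate 1), and their sums were 1236 to 3757 CPM in WT and 153.2 to 450.3 CPM in KO-labelled libraries. No gene of any marker list was at 0 in every library. The part of these cell types in the differences of the 8 genes was not tested.

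To set the 8 genes against these cell types within each library, the mean log2 CPM of the tested genes of a marker list was subtracted from the log2 CPM of each gene. Relative to the osteoclast markers, *Siglec15* was lower by a difference of -1.15 (adjusted p = 0.0173, no overlap) and *Trem1* by -1.03 (adjusted p = 0.0448), whereas *Trem2* was higher by 0.59 and *Sirpa* by 0.57 (both adjusted p = 0.0173, no overlap). The values for *Tyrobp* (0.17), *Pirb* (0.29), *Oscar* (-0.45) and *Hcst* (-0.62) did not pass.

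Relative to the macrophage and monocyte markers, *Siglec15* (-1.32), *Trem1* (-1.20) and *Hcst* (-0.79) were lower, and *Sirpa* (0.40) and *Trem2* (0.42) were higher. *Tyrobp*, *Pirb* (0.13) and *Oscar* (-0.61) did not pass. The genes of this marker list changed unequally, from -3.82 for *Ly6c2* to 0.31 for *Cd14*, so its mean is a mixed reference. A mean without *Ly6c2* was not tested. Relative to the neutrophil markers all 8 were higher, by 1.42 for *Siglec15* to 3.16 for *Trem2*. This follows from the larger fall of that list (median -3.05, against -2.12 for *Siglec15*) and says nothing more about the 8 genes. The differences from the osteoclast and macrophage lists likewise include the fall of those lists (medians -1.03 and -0.62). *Trem2* (-0.24) and *Sirpa* (-0.26) came out higher because they fell less than the lists, and neither rose. In all, 17 of these 24 differences passed the two-sided exact permutation test after adjustment over the 24, 8 of them against the neutrophil markers. The smallest unadjusted p of that test is 0.00794. Leaving out 1 library gave counts of 12 to 18, but the smallest unadjusted p is then 0.0286 (1 WT library out) or 0.0179 (1 KO-labelled library out), so calls are lost in part through the fewer splits. *Trem1* against the osteoclast markers then passed only without WT replicate 3 (adjusted p up to 0.0857 otherwise), while its difference stayed between -0.895 and -1.23, and *Trem1* against the macrophage markers did not pass without KO-labelled replicate 3 or 4 (0.0571 and 0.0536). Against the macrophage markers, *Hcst* passed only without WT replicate 5 or KO-labelled replicate 2 (differences of -0.463 to -0.976), *Trem2* only without WT replicate 3 or KO-labelled replicates 2 or 3 (0.312 to 0.52), and *Sirpa* not without KO-labelled replicate 4 (0.0536). *Oscar* passed against both lists without KO-labelled replicate 2 (both adjusted p = 0.0306).

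**Figure D3:**
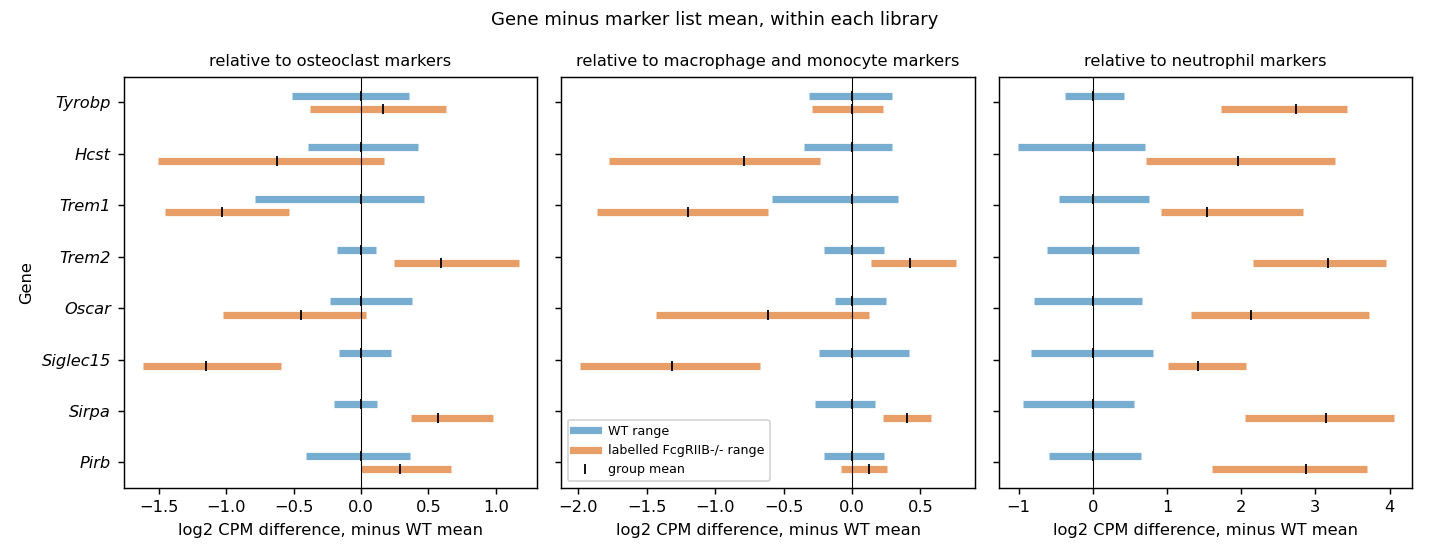
Difference in log2 CPM between each of the 8 genes and the mean of the osteoclast, macrophage and monocyte, or neutrophil markers in the same library, shown minus the WT mean of that difference, with the range of the 5 WT and the 4 KO-labelled libraries and a tick at each group mean. Siglec15 and Trem1 passed as lower in the KO-labelled group against the osteoclast and the macrophage markers, and Hcst against the macrophage markers. Trem2 and Sirpa passed as higher against these lists, and all 8 genes against the neutrophil markers. Ranges overlap for Trem1 against the osteoclast markers, and for Hcst and Trem2 against the macrophage markers.

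The genes that act beside and below these receptors were taken from lists of their families. Of 8 signalling adaptors, *Hcst* and others that carry an ITAM such as *Tyrobp*, 5 were lower and none higher (median -1.21). The most changed were the B cell receptor chains *Cd79a* (-2.74) and *Cd79b* (-1.96). Of 15 other tested receptors listed around DAP12 and DAP10, 13 were lower (median -1.47), 12 of them without overlap. That list also holds *Treml1*, *Treml2*, *Cd244a* and *Csf1r*, which are not classical DAP12 or DAP10 partners and were all lower. *Trem3*, an activating TREM of myeloid cells next to *Trem1*, fell from 4.12 to 0.221 CPM (-4.09, and -5.01 without KO-labelled replicate 1), and *Treml4* fell by 2.33 on the log2 scale. Of 9 tested FcRγ partners, 3 were lower (median -0.30): the mast cell IgE receptor chain *Fcer1a* (-3.75), the platelet collagen receptor *Gp6* (-3.00, and -4.03 without KO-labelled replicate 4) and *Fcgr3*. Of 14 other ITIM receptors, 10 were lower (median -0.84), led by *Cd22* of B cells (-2.12, and -1.35 without WT replicate 2) and *Cd33* (-1.82).

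Below the receptors, 14 of 23 kinases and adaptors were lower and none higher (median -0.57). *Btk* was lowered the most (log2 fold change -1.83, adjusted p = 0.00023), the PI3K subunit *Pik3cg* changed by -1.60, and *Syk* fell from 53.1 ± 12.9 CPM (SD, n = 5) to 24.0 ± 5.05 CPM (SD, n = 4), a log2 fold change of -1.15 (adjusted p = 0.00198). Of 12 genes of the calcium and NFATc1 arm, 3 were lower, near the 19.3% called lower over all genes tested. They were *Nfatc2* (-0.87), *Itpr2* (-0.61) and *Nfatc1* (-0.53), and the median of the list was 0.00. Of 9 phosphatases and their adaptors, 6 were lower (median -0.59), among them *Ptprc* (-1.16), *Dok3* (-0.93), *Inpp5d* (-0.92) and *Ptpn6* (-0.59). *Ptpn6* did not pass without WT replicate 2 or 5 or KO-labelled replicate 1, 2 or 3 (adjusted p up to 0.0966), and *Nfatc2* did not without KO-labelled replicate 1, 2 or 3 (up to 0.0783).

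Ligands of these receptors are made by many cells of the tissue. Of 14 tested, 6 were lower and 1 higher (median -0.32). *Cd47*, the SIRPα ligand, changed by -0.48 (adjusted p = 0.00193), the TREM1 ligand *Pglyrp1* by -1.41 (adjusted p = 0.0366, groups overlapping, up to 0.0933 and not passed without WT replicate 1, 4 or 5 or KO-labelled replicate 1, 2 or 3) and the collagen gene *Col3a1* by -0.98, while *Clu*, a TREM2 ligand, rose by 0.77 from 1345 to 2297 CPM (adjusted p = 0.0105). *Apoe* (0.04), *B2m* (-0.28) and *Col1a1* (0.06) did not pass.

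**Figure D4:**
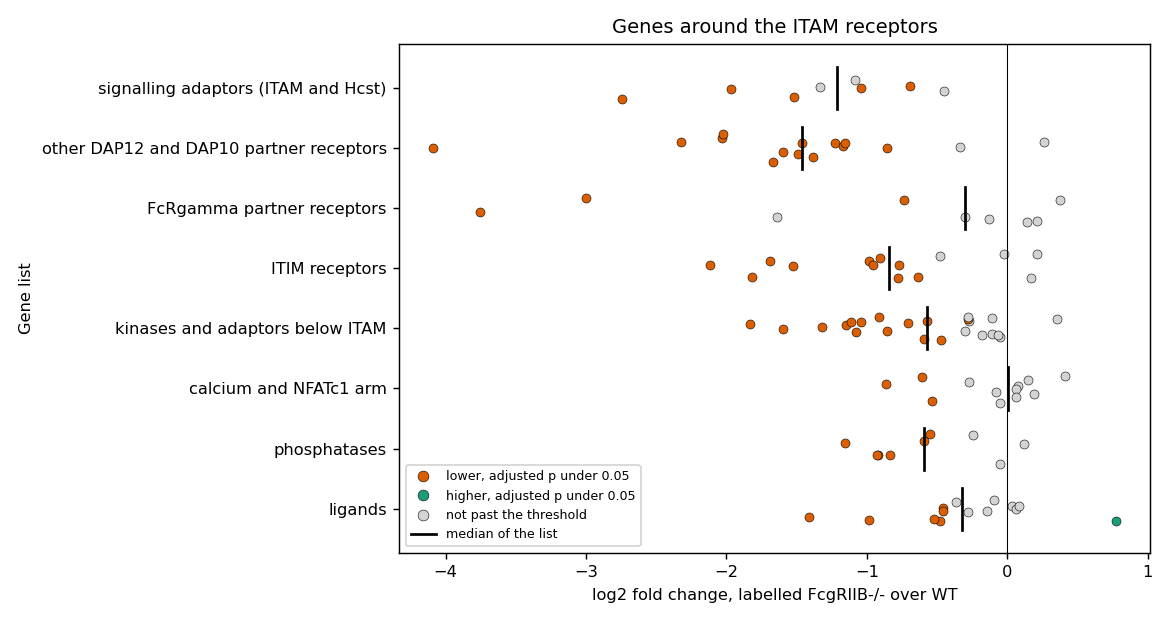
Log2 fold change (KO-labelled minus WT) of each tested gene in the pathway lists, one row a list, with a bar at the median of the list. Called genes are coloured and the others light grey. The medians run from -1.47 for the list named other DAP12 and DAP10 partner receptors to 0.00 for the calcium and NFATc1 arm.

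Among the other marker lists, 3 of 5 tested NK cell genes were lower (*Nkg7* at -2.21 and *Eomes* at -1.62). So were 5 of 8 dendritic cell genes (*Siglech* at -1.67 and *Flt3* at -1.30) and 6 of 7 B cell genes (*Ms4a1* at -3.15 and *Cd79a* at -2.74). Of the T cell genes, 1 of 6 was lower (*Cd4* at -1.38), near the 19.3% called lower over all genes tested. *Cd4* passed only in the fits without WT replicate 1, 3 or 4, *Eomes* did not pass without KO-labelled replicate 1, 2 or 3 (adjusted p up to 0.0722), and *Ms4a1* did not without KO-labelled replicate 1, 2 or 4 (up to 0.0664) and was -2.01 without WT replicate 2. Of 10 osteoblast and osteocyte markers 4 were lower (median -0.08), with *Mepe* (-4.46) and *Sost* (-3.56) the most changed. Both values rest on WT replicate 5, at 245.5 CPM of *Mepe* and 351.5 CPM of *Sost*: without it the log2 fold changes were -2.03 (adjusted p = 0.0122) and -1.06 (adjusted p = 0.0233). Without any 1 KO-labelled library *Sost* did not pass (adjusted p up to 0.096), nor did *Mepe* without KO-labelled replicate 1, 3 or 4 (up to 0.0633). The other 6 osteoblast and osteocyte markers did not pass. They were *Bglap* (0.60), *Phex* (0.23), *Alpl* (0.11), *Dmp1* (0.08), *Col1a1* (0.06) and *Runx2* (-0.21). Of 8 skeletal muscle markers 5 were higher (median 0.89), led by *Myl1* (1.19) and *Tnnt3* (1.14), with sums of 6866 to 15900 CPM in WT and 16130 to 28120 CPM in KO-labelled libraries. Of 8 stratified epithelium markers 6 were lower, led by *Lor* (-6.75) and *Krt4* (-5.67), and 1 was higher. The higher one was *Krt5* (0.39, adjusted p = 0.0356), and *Krt14* (0.24) did not pass. *Krt5* did not pass without WT replicate 2 or 4 or KO-labelled replicate 1, 2 or 3 (adjusted p up to 0.0863). Osteoblast, osteoclast and muscle markers were thus present in every library, and the part of these cells in the values above was not tested.

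For each of the 8 genes, the 3 genes with the most similar profile were found by the root mean square (RMS) difference of centred log2 CPM over the 9 libraries, among genes whose average log2 CPM was 1 or more. Likeness here includes the difference between the groups. The closest to *Tyrobp* were *Spi1* (RMS 0.132 log2 units, against a median of 0.526 over all genes), which encodes the myeloid transcription factor PU.1, then *Hsd11b1* and *Ptpn6*. *Ptpn6* (0.0818) and *Spi1* (0.11) were the closest to *Pirb*, followed by *Aldh3b1*. *Oscar* was nearest to *Ly75* (0.166), to *Dcstamp* (0.184), which encodes the fusion protein DC-STAMP of osteoclasts, and to *Uhmk1*.

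The nearest to *Trem2* were *Cotl1* (0.132), *Sh3bp2* and *Fes*, where *Sh3bp2* encodes an adaptor that binds *Syk*. For *Hcst* they were *Tmc8* (0.227), *Dnase1l3* and *Slc25a21*, for *Trem1* *Adamts18* (0.319), *Parvg* and *Slc37a2*, for *Siglec15* *Spon2* (0.171) and *Sprr2f*, and for *Sirpa* *Sipa1* (0.0484), *Cyp2j9* and *H2-T23*.

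Promoter sequences from RefSeq (GRCm38.p6) were found for 5 of the 8 genes: *Hcst*, *Oscar*, *Pirb*, *Trem1* and *Trem2*. They are shown, for 4 of them, because *Spi1* was among the nearest profiles of *Tyrobp* and *Pirb*, and PU.1 is known to bind GAGGAA. Windows are the 250 bases before the start of the gene (224 for *Trem1*), 5′ to 3′ on the strand of the gene, with capitals marking GAGGAA or the ETS family motif AGGAAGT on either strand (TTCCTC or ACTTCCT). The motifs were chosen after the sequences had been seen. *Trem1* lies at chr17:48232489-48232712 (plus strand), *Trem2* at chr17:48346151-48346400 (plus strand), *Hcst* at chr7:30419855-30420104 (minus strand) and *Pirb* at chr7:3720383-3720632 (minus strand).
Trem1: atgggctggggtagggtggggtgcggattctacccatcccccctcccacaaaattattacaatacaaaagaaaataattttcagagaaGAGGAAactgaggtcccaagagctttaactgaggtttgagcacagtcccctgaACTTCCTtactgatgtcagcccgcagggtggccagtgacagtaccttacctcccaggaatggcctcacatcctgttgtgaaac
Trem2: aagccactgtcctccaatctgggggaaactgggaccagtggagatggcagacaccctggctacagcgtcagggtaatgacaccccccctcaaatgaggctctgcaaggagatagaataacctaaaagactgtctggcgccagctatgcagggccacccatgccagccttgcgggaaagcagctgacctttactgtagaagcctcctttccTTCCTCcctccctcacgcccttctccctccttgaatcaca
Hcst: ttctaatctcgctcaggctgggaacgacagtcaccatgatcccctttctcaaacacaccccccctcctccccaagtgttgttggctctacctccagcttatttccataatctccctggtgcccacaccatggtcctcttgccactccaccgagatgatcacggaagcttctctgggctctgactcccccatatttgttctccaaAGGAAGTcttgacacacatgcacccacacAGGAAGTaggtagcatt
Pirb: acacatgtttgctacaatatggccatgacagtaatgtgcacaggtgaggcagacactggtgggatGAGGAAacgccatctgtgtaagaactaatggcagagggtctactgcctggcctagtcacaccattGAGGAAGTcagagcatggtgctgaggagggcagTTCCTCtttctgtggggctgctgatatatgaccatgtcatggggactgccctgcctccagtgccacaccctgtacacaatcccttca

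GAGGAA occurred at 3 places in the *Pirb* window (185, 120 and 87 bases before the start), at 1 place each in those of *Trem1* (136 bases), *Trem2* (40 bases) and *Oscar* (237 bases), and at none in that of *Hcst*. It was in 23.3% of the 32851 RefSeq promoter windows of 250 bases. AGGAAGT occurred at 2 places in the *Hcst* window (46 and 17 bases) and at 1 place each in those of *Pirb* (119 bases, overlapping a GAGGAA) and *Trem1* (83 bases), against 7.69% of all windows. The AP-1 motif TGANTCA was found in the *Trem2* window alone among the 5 (9 bases before the start) and in 6.75% of all windows. The short NFAT core GGAAA was in all 5 windows and in 55.6% of all windows. Because the motifs were chosen after the sequences had been seen, the shares over all windows do not test for enrichment. Windows with GAGGAA belonged to genes called lower (*Trem1* and *Oscar*) and to genes that did not pass (*Trem2* and *Pirb*), and a match of letters does not show binding.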

How the data were processed

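Poly(A) RNA of whole mandibles was sequenced as a stranded library per mouse. Per the submitters' processing notes and the paper's methods, the authors used Trim Galore for trimming, HISAT 02.1.0 for mapping to mm10 and featureCounts for counting. The deposited values are raw counts. The annotation, strand setting and treatment of multi-mapping reads are not given in the sources used here. In the table, 1 column matched no sample label and was not used, and 1030 rows without a symbol took no part in naming. Groups came from the sample labels, and samples are taken as separate mice.

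Counts were tested with edgeR 4.0.16 in R 4.3.3 (filterByExpr with a minimum count of 10, TMM, quasi-likelihood test of genotype over all 9 libraries, no fold limit, adjusted p threshold 0.05). Log2 CPM used a prior count of 2. Differences within libraries were tested by two-sided exact permutation over 126 splits. DESeq2 1.42.0 was an alternative, with other scalings, filters, a fold limit, a replicate block and each library left out. No pair of libraries in a group agreed within counting noise (0 pairs). Named were the 8 genes, the 3 nearest profiles of each, and set adaptors, ligands, kinases and phosphatases. From each of the 18 lists, the 2 called genes with the largest absolute log2 fold change were named. *Fcgr3*, the remaining called FcRγ partner, and *Clu*, the only ligand called higher, were chosen after their values were seen. So were the osteoclast, macrophage, osteoblast and epithelium markers named as not passing, and *Krt5*, the only epithelium marker called higher. The members and the lists were chosen with earlier results of these data known. Coordinates are RefSeq GRCm38.p6 (mm10), and exon lengths are from the GENCODE annotation. Protein sequences were not used here. Of the nearest profiles, 1 is not reported here.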

Additional observations from a re-analysis of the deposited data

How the results depend on the processing

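The direction of all 8 genes was negative in every alternative run. Of the 8, 5 were called lower in the main analysis, 5 with DESeq2's size factors in edgeR and 5 without the filter. The count was 7 with library totals alone, 6 with DESeq2, 4 with a log2 fold limit of 1, and 4 to 6 with 1 library left out. Over all genes tested, 19.3% were called lower in the main analysis and 19.7% with DESeq2. That share is not given here for the other settings, so their counts cannot be set against it. A minimum of 10 counts in every library left only 5 of the 8 to test, without *Hcst*, *Trem1* and *Siglec15*. Of those 5, 2 were called (*Tyrobp* and *Oscar*). With the replicate block, 4 were called: *Tyrobp* was lost (log2 fold change -0.50, adjusted p = 0.137). No pairing by replicate number was seen. The correlations of same-numbered libraries were 0.0969, 0.0276, -0.114 and -0.0739, and 0 KO-labelled libraries correlated best with their own number. These values do not exclude a pairing of the mice. Over the pathway and marker lists 109 genes were called lower and 7 higher. These became 72 and 3 with the fold limit, and DESeq2 called 11 higher. With 1 library left out, 86 to 108 were called lower and 4 to 9 higher, with 4 higher without KO-labelled replicate 1. The difference of *Tyrobp* from the macrophage and monocyte markers, near 0 in the main analysis (-0.00029), was 0.0053 with a prior count of 0.5 and between -0.078 and 0.096 with 1 library left out. Of the 24 pairs of a gene and a marker list, 17 passed with either prior count. The causes of these changes were not tested. Genes with under 1 CPM in KO-labelled libraries rest on few reads, which limits the precision for *Siglec15*, *Trem1* and *Hcst*.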
